A study of Sus scrofa with 23 samples.

Results

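Gene expression of porcine 4-cell embryos made by somatic cell nuclear transfer was compared with that of 4-cell embryos conceived in vivo. The comparison used 3 of the 23 libraries of the deposited series, 1 per condition, chosen by their labels: NT-D 4C, clones of Duroc donor cells; NT-LW 4C, clones of Laiwu donor cells; and IV-D 4C, in vivo fertilized Duroc embryos. Laiwu is a Chinese and Duroc a lean Western pig breed. The donor cells were ear fibroblasts of a single 1-year-old boar of each breed, and the Duroc boar also sired the in vivo embryos. Both kinds of clone were built with slaughterhouse oocytes of hybrid sows that had been matured in vitro and enucleated, and they were cultured in vitro. The in vivo embryos were instead flushed from Duroc sows after artificial insemination. Clones of a boar are male and fertilized embryos are of both sexes. Donor genotype, oocyte source, breed of the oocyte, culture and sex therefore cannot be told apart from nuclear transfer in the comparison of clones with in vivo embryos. Each library was a pool of embryos, and with 1 library per condition no value here has an error between replicates and conditions could not be tested against each other. Further replicate libraries that the study describes for NT-D and IV-D 4-cell embryos were not analysed here.

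The values were FPKM, that is fragment numbers divided by gene length and by the library's total, which can be compared between genes because they are per length. Depth was similar, with 15853337 fragments in IV-D, 15028088 in NT-D and 19144618 in NT-LW. The deposited table holds 8603 genes and is by its name that of the differentially expressed ones, so every count is a count within that table and may have been shaped by these same contrasts. The fold rule called a gene higher or lower for a difference over 1 in log2(FPKM + 1), provided that either library of the pair reached an FPKM of 1. All differences below are on that log2(FPKM + 1) scale, which understates the change of genes with low values.

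After fertilization an embryo lives first on RNA stored in the oocyte. That store is degraded while the embryonic genome is switched on, and in the pig the main wave of this switch falls at the 4-cell stage. In a clone the oocyte has to do the same with the genome of a differentiated cell, whose own RNA enters the oocyte together with the nucleus.

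By the fold rule 731 of 7506 compared genes were higher in NT-D than in IV-D embryos (9.74%) and 991 were lower (13.2%). In NT-LW embryos 813 of 7539 were higher (10.8%) and 711 lower (9.43%). Lower genes outnumbered higher ones in NT-D embryos, whereas the order in NT-LW embryos depended on the scaling, with 787 lower and 737 higher after median-ratio scaling. The same way in both clone libraries, 545 genes were higher (7.35% of the 7417 compared in both) and 538 lower (7.25%). In 1 clone library only, 635 genes were called in NT-D (8.32% of the 7628 compared in either) and 437 in NT-LW (5.73%). Only 4 genes were called in opposite directions (0.0539%). Both comparisons used the same IV-D library, so a value that was high or low in that library alone would appear as a difference in both clones, and the shared counts are not 2 independent observations.

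**Figure D1:**
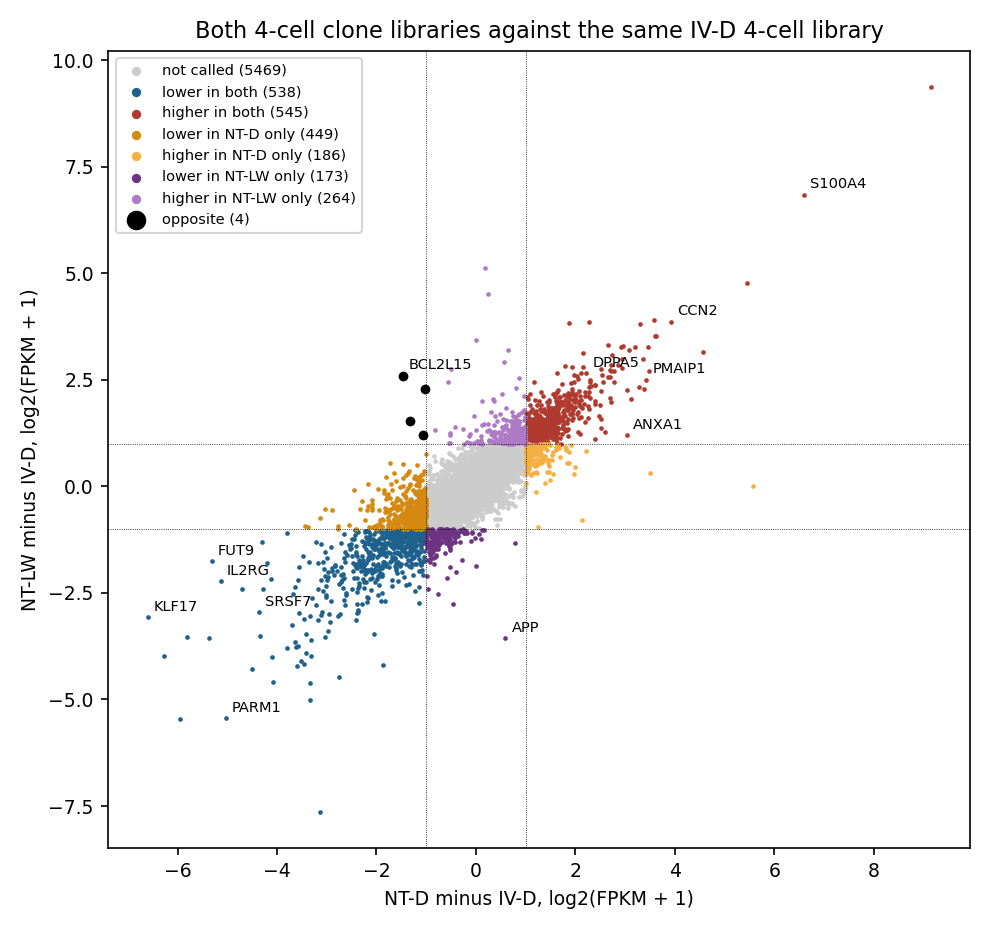
Difference of NT-D (x axis) and NT-LW (y axis) from the shared IV-D library on the log2(FPKM + 1) scale, 1 point per gene with FPKM of at least 1 in one of the 3 libraries. Dotted lines mark a difference of 1, and colours the 538 genes lower in both, the 545 higher in both, those called in 1 clone only and the 4 called in opposite directions.

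Among genes lower in both clones, the largest shared difference was that of PARM1, a mucin-like membrane protein (ENSSSCG00000008966, Sscrofa11.1 chromosome 8, 70788134 to 70892642). The FPKM of PARM1 was 107 in IV-D, 2.30 in NT-D and 1.51 in NT-LW (1473, 30 and 25 fragments). That is 46.5-fold lower in NT-D (95% exact binomial interval for counting error, 32.5 to 69.2) and 71.2-fold lower in NT-LW (48.0 to 110). SERPINA12, which encodes the adipokine vaspin (ENSSSCG00000002478), was at 23.2, 0.428 and 0 in the same order. With 0 fragments in NT-LW its level was at least 138-fold lower there, set against the level of 3 fragments. MS4A12, a membrane-spanning protein (ENSSSCG00000027387, chromosome 2, 11177406 to 11193744), was at 14.0, 0.401 and 0, at least 148.5-fold lower in NT-LW. All intervals cover counting error only.

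TYR, the tyrosinase of melanin synthesis, was at 25.3 in IV-D, 1.09 in NT-D and 1.07 in NT-LW. PNO1, which helps to assemble the small ribosomal subunit (chromosome 3, 74071621 to 74084896), was at 38.0, 2.16 and 1.88. GCSAML, a relative of a germinal centre signalling protein, was at 19.8, 0.743 and 0.554. These genes were at nearly the same low level in both clones. The keratin-associated protein gene KRTAP11-1 was at 33.1, 1.97 and 0.992, and NAA11, a catalytic subunit of an N-terminal acetyltransferase, at 23.1, 0.192 and 1.13. NAA11 had 2 fragments in NT-D, a 120-fold lower level with a counting interval of 33.0 to 999.5. H1-3, a linker histone of a family of near-identical genes whose reads may be split uncertainly, was at 136, 11.8 and 11.4. TMCO2, a transmembrane protein, was at 120, 11 and 3.92.

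These 10 genes did not follow 1 course after the 4-cell stage. PNO1 was at 84.2 in the IV-D 8-cell library and at 59.5 in NT-D and 40.2 in NT-LW 8-cell embryos. The ratio of the clones to the in vivo embryos was thus closer to 1 at that stage. NAA11 was at 41.5 in IV-D 8-cell embryos and at 0 and 0.353 in the clones, and TYR at 52.9, 0 and 0.157. PARM1 was at 7.75, 2.75 and 10.6, past its 4-cell maximum in the in vivo embryos.

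**Figure D2:**
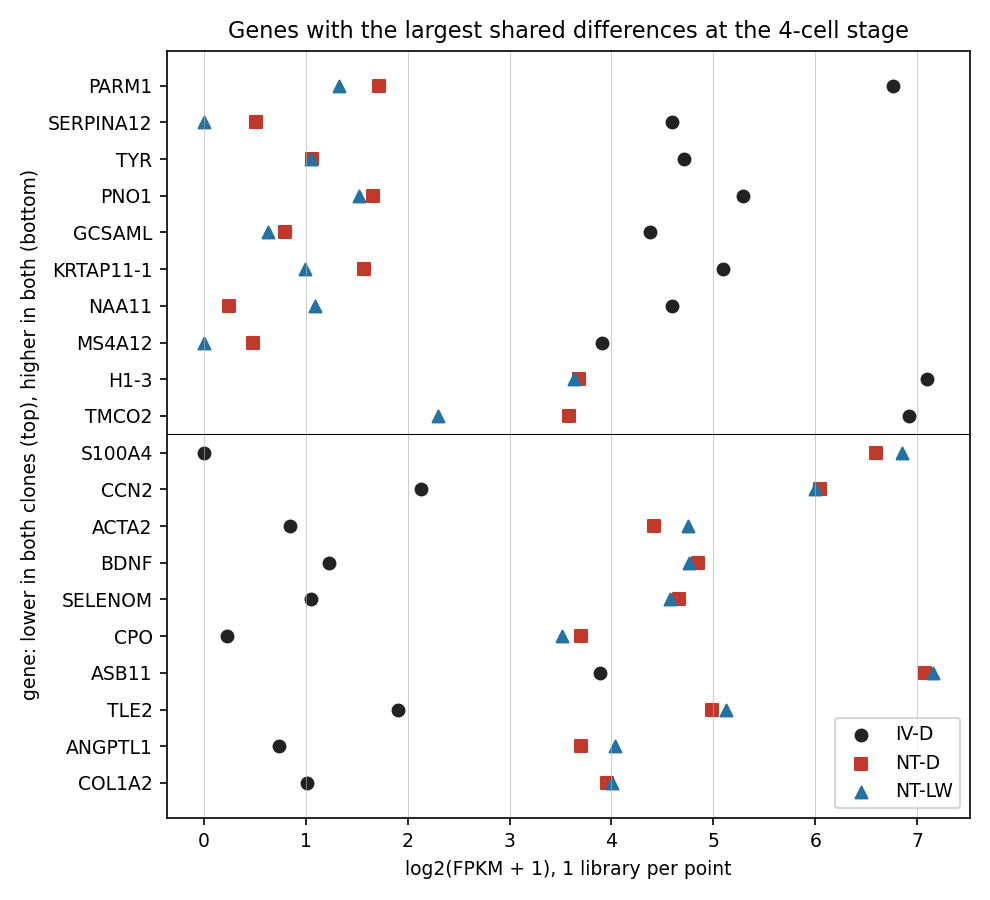
Level of the 20 named genes with the largest shared differences, as log2(FPKM + 1), with 1 point for each of the 3 libraries. The upper 10 genes are lower and the lower 10 higher in both clones, and S100A4 has 0 fragments in IV-D.

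The 250 bases in front of the annotated start are shown for 2 genes that were nearly silent before the 4-cell stage and lower in both clones, PARM1 and KLF17, a Kruppel-like transcription factor, and for S100A4, the named gene with the largest shared excess. The sequences are from the Sscrofa11.1 genome by the RefSeq gene starts, 5′ to 3′ on the strand of the gene: chr8:70787884-70788133 on the plus strand for PARM1, chr6:167188419-167188668 on the minus strand for KLF17 and chr4:96087852-96088101 on the plus strand for S100A4. Capitals mark matches on either strand to 6 short motifs: the CCAAT box, the TATA box as TATAAA, the GC box as GGGCGG, the E-box as CACGTG, the homeobox site TAATCC, and the Kruppel-like core CACCC, which can overlap GGGCGG.
PARM1: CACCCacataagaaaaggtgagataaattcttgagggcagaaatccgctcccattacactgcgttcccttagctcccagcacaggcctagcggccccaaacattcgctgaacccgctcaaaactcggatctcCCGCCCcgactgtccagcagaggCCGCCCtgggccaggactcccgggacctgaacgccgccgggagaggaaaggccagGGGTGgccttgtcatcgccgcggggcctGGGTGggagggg
KLF17: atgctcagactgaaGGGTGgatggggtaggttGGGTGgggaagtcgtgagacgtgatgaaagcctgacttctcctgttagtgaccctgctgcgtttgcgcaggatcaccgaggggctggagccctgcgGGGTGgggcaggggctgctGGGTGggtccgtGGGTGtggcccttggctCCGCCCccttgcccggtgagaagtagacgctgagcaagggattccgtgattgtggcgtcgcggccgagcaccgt
S100A4: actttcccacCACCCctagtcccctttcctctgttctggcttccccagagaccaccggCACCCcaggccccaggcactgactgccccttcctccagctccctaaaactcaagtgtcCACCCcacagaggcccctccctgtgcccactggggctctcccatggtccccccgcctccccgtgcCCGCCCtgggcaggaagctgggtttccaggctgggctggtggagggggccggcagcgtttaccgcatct

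The PARM1 and KLF17 stretches held 16 CpG each, with an observed to expected ratio of 0.643 and 0.670, and the S100A4 stretch held 7, with a ratio of 0.270. KLF17 held 5 matches to CACCC, the core of the sites bound by Kruppel-like factors, in the stretch shown, and 1 to GGGCGG. A match is only a match of letters. Over all 370 promoters of genes lower in both, 54.6% held CACCC against 54.5% of the 6063 promoters of all genes compared. TATAAA, the TATA box, was held by 10.3% against 7.52%, CCAAT by 32.7% against 34.7%, GGGCGG by 55.4% against 56.9%, CACGTG by 7.57% against 8.02% and TAATCC by 3.51% against 4.88%. For the 412 promoters of genes higher in both, the shares were 54.9%, 8.50%, 35.7%, 48.5%, 8.74% and 4.85% in the same order of motifs.

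The counts of each gene list below are to be read against the shares over all genes, 13.2% lower and 9.74% higher in NT-D and 9.43% lower and 10.8% higher in NT-LW. Of 44 splicing factors compared, 15 were lower (34.1%) and 1 higher in NT-D, and 7 lower (15.9%) and 1 higher in NT-LW, with medians of -0.76 and -0.37 against -0.02 and 0.03 for all genes. The 7 lower in NT-LW were all lower in NT-D as well. SRSF7, a serine- and arginine-rich splicing factor, was at 881 in IV-D, 41.7 in NT-D and 113 in NT-LW. Its relative SRSF3 was at 396, 52.7 and 99.8. PRPF19, a core component of the activated spliceosome, was at 22.5, 5.53 and 5.92. In all 3 genes both clones were below the in vivo embryos, and for SRSF7 and SRSF3 NT-D was below NT-LW. The exception was HNRNPD, an RNA-binding protein that marks messages for decay, which was at 6.57, 16.5 and 19.7.

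For transcription by RNA polymerase II, 14 of 48 genes were lower (29.2%) and 0 higher in NT-D, and 10 of 47 were lower (21.3%) and 1 higher in NT-LW, with medians of -0.49 and -0.21. GTF2B, the general factor TFIIB that positions the polymerase at the start site, was at 363, 41 and 77.9. ELL2, an elongation factor, was at 34.4, 6.99 and 11. SUPT4H1, a subunit of the elongation factor DSIF, was at 144 in IV-D, 31.8 in NT-D and 74.2 in NT-LW, and was called in NT-D only. POLR2B, the second largest subunit of the polymerase, was at 31.7, 9.42 and 14.0. The gene higher in NT-LW was POLR2H, another subunit, at 12.8, 26.2 and 34.9.

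Ribosome biogenesis had 9 lower (25.7%) and 0 higher of 35 genes in NT-D and 4 lower (11%) and 1 higher of 36 in NT-LW, with medians of -0.57 and -0.39. FBL, the methyltransferase of nucleolar box C/D particles, was at 109, 9.80 and 31.3, and its partner NOP58 at 265, 59.2 and 104. POLR1E, a subunit of RNA polymerase I, was at 62.9, 18.8 and 18.3. Of 35 translation initiation and elongation factors, 12 were lower in NT-D (34.3%) and 5 in NT-LW (14.3%), and 0 were higher in either, with medians of -0.72 and -0.32. EIF1AX, an X-linked initiation factor, was at 54.8, 9.41 and 14.0, and EIF6, which keeps ribosomal subunits apart, at 306.5, 48.8 and 105. EIF3L was at 29.6, 12.9 and 12.6.

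Of 41 ribosomal proteins compared, 10 were lower and 3 higher in NT-D, and 1 was lower and 6 higher in NT-LW, with medians of -0.21 and 0.12. RPL27 was lower in both, at 395 in IV-D, 113 in NT-D and 176 in NT-LW. RPLP0, of the ribosomal stalk, was higher in both, at 96.1, 470.2 and 485, as was RPL7 at 35.4, 86.1 and 115. Ribosomal protein genes have many processed pseudogenes, so reads can be split uncertainly between copies. Of 31 proteasome genes 5 were lower and 1 higher in NT-D and 2 lower and 1 higher in NT-LW (medians -0.37 and -0.31), and PSMB2 was the gene higher in both, at 254, 742.5 and 905.

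**Figure D3:**
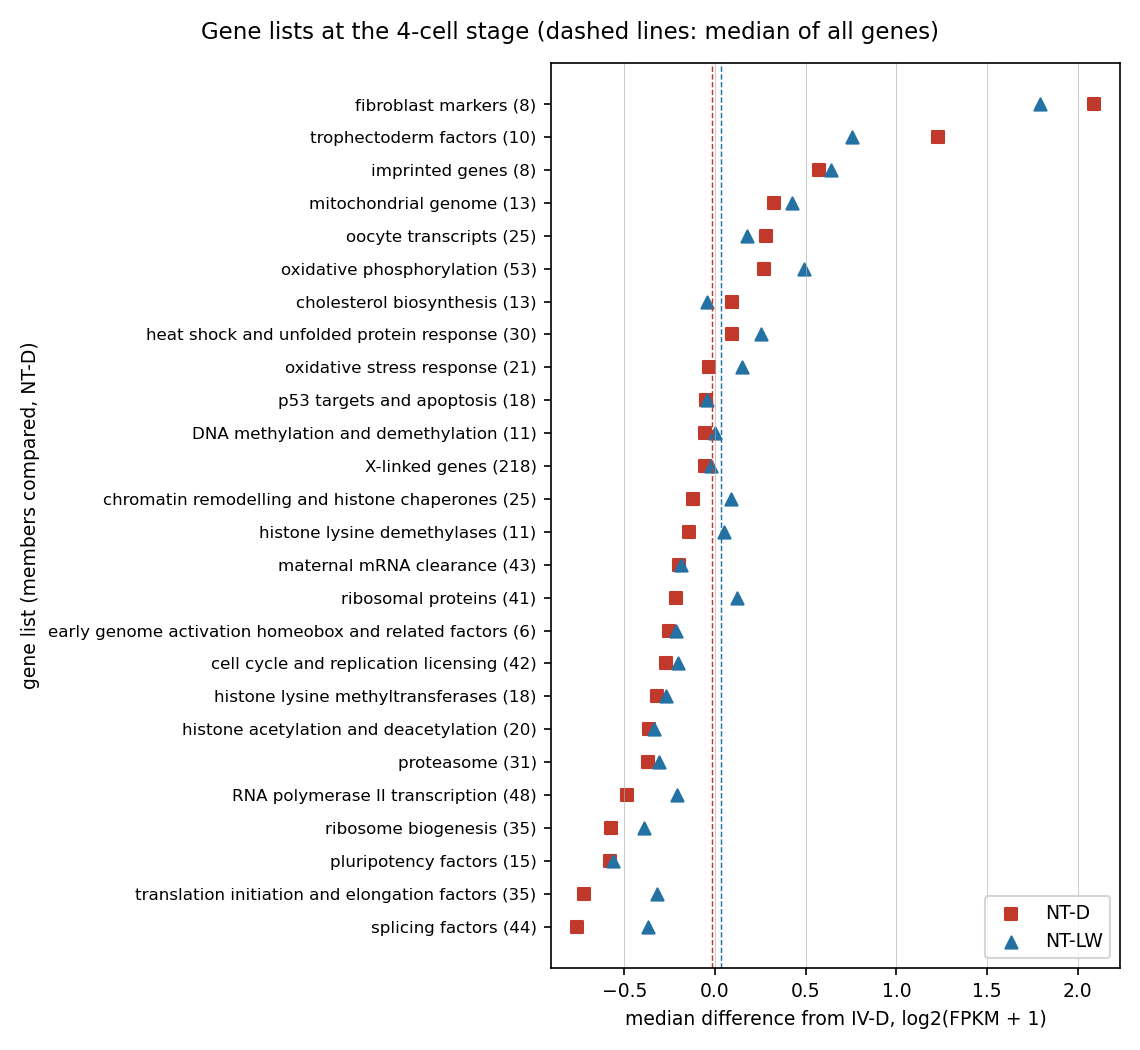
Median difference from IV-D on the log2(FPKM + 1) scale for each gene list with at least 5 compared members, for NT-D (squares) and NT-LW (triangles); dashed lines are the medians of all genes, -0.02 and 0.03. Splicing factors and translation factors stand lowest in NT-D, and fibroblast markers highest in both.

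Among 15 pluripotency factors compared in NT-D, 5 were lower and 3 higher, and of 14 in NT-LW 3 were lower and 2 higher (medians -0.58 and -0.56). KLF17, expressed at the genome activation stage of several mammals, was at 96.2, 0 and 10.7. No fragment was found in NT-D, where its level was at least 942-fold lower against the level of 3 fragments. KLF4, a reprogramming factor, was at 34.6 in IV-D, 2.27 in NT-D and 17.7 in NT-LW, and called in NT-D only, since the NT-LW difference of -0.93 was just inside the limit. In 8-cell embryos KLF4 was at 61.3, 84.6 and 79.3. DPPA5, an RNA-binding protein of oocytes and pluripotent cells, stood on the other side, at 355, 1661 and 2241. Its message was already abundant in oocytes, at 1293 in in vivo and 2146 in recipient oocytes. NANOG, a homeobox factor of the inner cell mass, was lower in both, with differences of -2.23 in NT-D and -1.04 in NT-LW. OLIG3, ZFP37, ZFP42, KDM4A, KDM4D and KDM5B were not analysed here.

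Of the homeobox and other factors linked to early genome activation, 2 of 6 were lower in NT-D and 1 of 6 in NT-LW, with 0 higher in either (medians -0.25 and -0.21). NFYA, a subunit of the factor that binds CCAAT, was at 56.0, 21.1 and 42.2. Of 11 genes on the list of lysine demethylases 2 were lower in NT-D, 0 in NT-LW and 0 higher in either, with medians of -0.14 and 0.05. The NT-LW median turned to -0.04 when libraries were rescaled to equal sums of 1000000 and to -0.0019 under median-ratio scaling. The 2 lower in NT-D were KDM3A, an H3K9 demethylase, at 36.7, 16.4 and 24.1, and JMJD6 at 14.7, 3.78 and 7.28. JMJD6 is on the list but is known as a lysyl hydroxylase. Of 18 lysine methyltransferases compared in NT-D 3 were lower (16.7%) and 1 higher, and of 17 in NT-LW 2 were lower (11.8%) and 0 higher, shares near those of all genes (medians -0.32 and -0.27). SETD2, which trimethylates H3K36 in transcribed genes, was at 17.0, 4.23 and 7.50, and SETD3, an actin histidine methyltransferase, at 9.01, 3.03 and 3.83.

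DNA methylation genes had 2 lower and 1 higher of 11 in NT-D and 1 lower and 1 higher in NT-LW, with medians of -0.05 and 0.00, the latter -0.11 with equal sums, -0.05 under median-ratio and -0.03 under trimmed-mean scaling. TDG, a glycosylase of active demethylation that was at 0.110 in both oocyte libraries, was at 60 in IV-D, 72.7 in NT-D and 104 in NT-LW, so this onset was present in both clones. Of 20 genes of histone acetylation 2 were lower and 0 higher in NT-D and 1 lower and 1 higher in NT-LW (medians -0.36 and -0.34), among them the corepressor SIN3A at 420.3, 211 and 170. Of 25 chromatin remodellers and histone chaperones 3 were lower in each clone and 0 higher (medians -0.12 and 0.09, the latter -0.0079 with equal sums). SMARCA1, an X-linked remodeller, was at 8.42, 1.07 and 0.560.

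Of 25 oocyte transcripts, 7 were higher in NT-D (28.0%, against 9.74% of all genes) and 8 in NT-LW (32%, against 10.8%), while 2 were lower in each. The same 7 were higher in both, where the share of all genes was 7.35%. BMP15, an oocyte-secreted growth factor, was at 53.4 in IV-D, 355 in NT-D and 389 in NT-LW, and GDF9, its partner, at 31.9, 111 and 113. ZP4, a zona pellucida protein, was at 187, 672 and 652. OOEP, a protein of the subcortical maternal complex, was at 78.6, 323 and 258. The median of the list was 0.28 for NT-D and 0.18 for NT-LW, and MOS, the meiotic kinase, was at 91.8, 53.2 and 36.4.

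BMP15 was already at 142 in NT-D and 521 in NT-LW 2-cell embryos against 52.0 in IV-D 2-cell embryos, and at 121 in recipient against 50.7 in in vivo oocytes. ZP4 was at 380.5 and 856 in the clones against 82.7 in IV-D 2-cell embryos. OOEP was not higher at the 2-cell stage, at 1243 and 1051 against 1413, so that for this gene the difference appeared between the 2-cell and the 4-cell libraries. Among maternal mRNA clearance genes, 9 of 43 were lower and 1 higher in NT-D and 4 lower and 3 higher in NT-LW (medians -0.20 and -0.19). YTHDF3, a reader of methylated adenosine, was at 17.9, 3.49 and 8.74, EXOSC3, of the RNA exosome, at 48.7, 12.3 and 23.2, and ZFP36, which binds AU-rich messages, at 9.35, 2.50 and 2.84.

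Markers of the donor cell type were present in the clones. Of 10 fibroblast markers that the table holds, 8 were compared, of which 6 were higher in each clone and the same 6 in both, with medians of 2.09 in NT-D and 1.79 in NT-LW. S100A4, a calcium-binding protein of fibroblasts (ENSSSCG00000006578, chromosome 4, 96088102 to 96091160), had 0 fragments in IV-D and FPKM values of 95.3 in NT-D and 114 in NT-LW, at least 364-fold and 435-fold higher than 3 fragments in IV-D would give. ACTA2, smooth muscle actin, was at 0.800, 20.4 and 25.9, and COL1A2, a chain of type I collagen, at 1.02, 14.5 and 15.1. VIM was at 1.84, 9.72 and 8.22, SPARC at 0, 3.79 and 2.69, and COL1A1 at 0.630, 2.27 and 3.81. S100A4, ACTA2, SPARC and COL1A1 were under 1 in IV-D and so passed the minimum level only through the clones. The 2 markers not compared were under 1 in all of the 4-cell libraries. The count of 6 among 8 and the medians thus depend in part on the clones' own levels.

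The sum of FPKM over the fibroblast list was 9.18 in IV-D, 155 in NT-D and 178 in NT-LW 4-cell embryos. In 2-cell embryos it was 5.97, 128 and 105, so the sums already differed before the 4-cell stage. The clone sums were led by S100A4, at 95.3 in NT-D and 114 in NT-LW 4-cell embryos. In 2-cell embryos S100A4 was at 0.120 in IV-D, 76.8 in NT-D and 48.2 in NT-LW. Both oocyte libraries had low sums, 5.86 in vivo and 4.69 in recipient oocytes. S100A4 was at 39.9 in the IV-D 1-cell library too, against 63.9 and 76.1 in the 1-cell clones, and at 23.0 and 18.7 in the 8-cell clones. In 1-cell embryos COL1A2 was at 9.31 in IV-D, 14.7 in NT-D and 8.76 in NT-LW, and ACTA2 at 4.66, 39.6 and 46.9. The in vivo 1-cell library thus held these markers as well, COL1A2 at a level near that of the clones. In pooled embryos fewer cells of a type and less RNA per cell cannot be told apart, and the part of these markers in the other differences was not tested. Of the other cell types, 3 cumulus cell markers in the table had sums of 8.96, 12.1 and 23.2, led by HAS2 at 2.38, 5.21 and 18.8. The 2 sperm markers had sums of 86.5, 103 and 63.8, the 2 oviduct epithelium markers 0.981, 4.48 and 2.07, and the 1 blood cell marker was at 0 in all 3 libraries.

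The other leading genes higher in both clones were not fibroblast markers on the list. CCN2, a matrix-associated growth factor and target of YAP signalling (ENSSSCG00000004192), was at 3.37 in IV-D, 65.0 in NT-D and 62.8 in NT-LW. It was under 1 in all 2-cell libraries and at 33.5, 62.7 and 56.2 in 8-cell embryos, so CCN2 stood 1 stage earlier at its 8-cell level in the clones. BDNF, a neurotrophin, was at 1.35, 27.9 and 26.1. ANGPTL1, a secreted angiopoietin-like protein, was at 0.668, 12 and 15.4. Neither BDNF nor ANGPTL1 was above 6.44 in the oocyte, 2-cell or 8-cell libraries of any group.

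ASB11, an X-linked substrate adaptor of a ubiquitin ligase, was at 13.8, 134 and 142, TLE2, a Groucho corepressor, at 2.76, 30.7 and 33.8, and CPO, a carboxypeptidase, at 0.173, 12 and 10.4. These 3 genes had been at or above 4.53 in all 2-cell libraries, and their 4-cell level in the clones was close to or above that. SELENOM, a selenoprotein of the endoplasmic reticulum, was at 1.08, 24.2 and 22.9. The largest difference in the table belonged to a gene without a symbol, ENSSSCG00000035520, at 40.7, 23556 and 27607, and it was named after its values were seen. ENSSSCG00000035520 already stood at 4.17 in in vivo and at 5200 in recipient oocytes.

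Of 53 genes of oxidative phosphorylation 13 were higher (24.5%) and 8 lower (15.1%) in NT-D, and 12 higher (22.6%) and 3 lower (5.66%) in NT-LW, against 9.74%, 13.2%, 10.8% and 9.43% of all genes, with 11 higher in both and medians of 0.27 and 0.49. ATP5ME, a subunit of ATP synthase, was at 18.4, 78.1 and 116, NDUFA8 of complex I at 19.2, 61.9 and 92.9, and UQCR10 of complex III at 63.2, 178 and 252.5. COX5A of complex IV went the other way, at 149, 44.7 and 67.6. The 13 protein genes of the mitochondrial genome summed to an FPKM of 118416 in IV-D, 168196 in NT-D and 173126 in NT-LW. By the fold rule 1 of the 13 was higher and 1 lower in each clone (medians 0.33 and 0.42). ND4, of complex I, was at 6827, 13729 and 12864, and ATP8 at 197, 21.5 and 0. ATP8 overlaps ATP6, whose reads the counting may leave out as ambiguous, so its value is uncertain.

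Of 30 genes of heat shock and the unfolded protein response 5 were higher and 2 lower in NT-D and 6 higher and 1 lower in NT-LW (medians 0.09 and 0.25). HSP90B1, a chaperone of the endoplasmic reticulum, was at 18.7, 61.6 and 61.3, and HSPA13 at 1.59, 11.5 and 11. The cytosolic DNAJB1 was at 168, 43.6 and 72.7. Of oxidative stress genes 2 of 21 were higher and 3 lower in NT-D and 6 of 22 higher and 2 lower in NT-LW (medians -0.03 and 0.15), with the ferritin light chain FTL at 6.98, 51.7 and 51.1 and PRDX6, a peroxiredoxin, at 91.4, 19.4 and 30.6. The p53 and apoptosis list had 2 higher and 2 lower of 18 in NT-D and 2 higher and 1 lower in NT-LW (medians -0.05 and -0.05). Its member higher in both was PMAIP1, the BH3-only protein NOXA, at 5.93, 73.0 and 38.3. PMAIP1 was at 14.2, 36.5 and 58.6 in 8-cell embryos.

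Trophectoderm factors, which direct the outer lineage of the later blastocyst, had 5 higher and 1 lower of 10 in NT-D and 4 higher and 1 lower in NT-LW (medians 1.23 and 0.76). PTGES, prostaglandin E synthase, was at 12.3, 69.0 and 49.5 and GATA3 at 0.437, 3.18 and 3.48, but TFAP2C was at 25.6, 5.23 and 7.30. CCN2, described above, belongs to this list. Of imprinted genes, 2 of 8 were higher and 2 lower in NT-D, and 2 of 9 higher and 1 lower in NT-LW (medians 0.57 and 0.64). PHLDA2, a maternally expressed growth suppressor of the placenta, was at 144 in IV-D, 12 in NT-D and 45.9 in NT-LW, and the paternally expressed MEST and SNRPN were at 9.60, 23.3 and 26.0 and at 11.7, 39.4 and 45.5. In in vivo and recipient oocytes MEST was already at 10.9 and 13.9, SNRPN at 28.8 and 37.6 and PHLDA2 at 6.54 and 4.40. The parental origin of the reads was not tested. Of 42 cell cycle genes 4 were lower and 3 higher in NT-D and 3 lower and 2 higher in NT-LW (medians -0.27 and -0.20), with ORC1, of the origin recognition complex, at 95.7, 26.4 and 34.4 and CCND2, cyclin D2, at 0.496, 4.73 and 9.49. Of 13 cholesterol synthesis genes 2 were higher and 0 lower in NT-D and 1 higher and 1 lower in NT-LW (medians 0.09 and -0.04).

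Genes called in NT-D only comprised 449 lower (5.89%) and 186 higher (2.44%). Most of them leaned the same way in NT-LW without reaching the limit. The 449 lower genes had a median difference of -1.23 in NT-D and -0.68 in NT-LW, and 140 of them were within 0.5 of IV-D in NT-LW. Set directly against each other, 107 of the 449 were over 1 higher in NT-LW than in NT-D. CDK5RAP2, a centrosomal protein, was at 17.0 in IV-D, 2.68 in NT-D and 13.1 in NT-LW. MYC, a growth-promoting transcription factor, was at 49.8, 10.9 and 39.9. TRIML2, a tripartite motif protein, was at 70.5, 15.9 and 52.5, and ETHE1, a mitochondrial sulfur dioxygenase, at 31.4, 7.27 and 30.2.

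For TRIML2 and ETHE1 the NT-LW value lay near the in vivo one at the 4-cell stage but not later. In 8-cell embryos TRIML2 was at 154 in IV-D, 13.5 in NT-D and 11.3 in NT-LW, and ETHE1 at 206.5, 56.0 and 42.4. The genes higher in NT-D only were closer to the limit. ABHD12B was at 6.02, 15.1 and 7.89, CFAP300, a cilium assembly factor, at 5.66, 14.1 and 8.30, BMAL2, a circadian transcription factor, at 12.7, 27.8 and 17.7, and AGR2, a disulfide isomerase, at 4.59, 10.5 and 5.89. All 4 were at least 7.24 in the oocyte libraries and in the 2-cell NT-D and IV-D libraries, and their IV-D value was the lowest of the 3 at the 4-cell stage.

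In NT-LW only, 173 genes were lower (2.27%) and 264 higher (3.46%). The median difference of the 264 was 1.15 in NT-LW and 0.72 in NT-D, and 45 of them were over 1 higher in NT-LW than in NT-D when the clones were compared directly. SIRT1, a deacetylase, was at 8.81 in IV-D, 11.2 in NT-D and 31.7 in NT-LW, and ARPC5L, a subunit of the Arp2/3 complex, at 14.1, 16.0 and 40.9. LDAF1, a lipid droplet assembly factor, was at 4.05, 5.00 and 13.0, and CHCHD4, of mitochondrial protein import, at 12.9, 16.9 and 36.7. Among the lower ones CALB1, a calcium-binding protein, was at 18.7, 15.1 and 4.92. CCDC172 was at 13.7, 9.42 and 4.77, INTS2, of the Integrator complex, at 12.8, 9.24 and 4.58, and CAMK1D, a calmodulin-dependent kinase, at 11.5, 8.39 and 4.39.

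Compared directly, without the in vivo library, the clones differed in 325 of 7407 genes (4.39%), 253 of them higher in NT-LW (3.42%) and 72 lower (0.972%). BCL2L15, a BCL2 family member (chromosome 4, 106673555 to 106683103), was at 4.76 in NT-D and 96.0 in NT-LW. FUT9, a fucosyltransferase that makes the Lewis x epitope, was at 1.70 and 30.9 against 106 in IV-D. IL2RG, the common cytokine receptor chain on the X chromosome, was at 0.156 and 7.72 against 39.6 in IV-D. For FUT9 and IL2RG, as for KLF17, both clones were lower than IV-D and NT-D was the lower of the clones. Among the 538 genes lower in both clones, 46 were over 1 higher in NT-LW than in NT-D and 10 over 1 lower.

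In the other direction APP, the amyloid precursor protein (chromosome 13, 189434854 to 189716120), was at 60.6 in NT-D and 2.44 in NT-LW against 39.8 in IV-D (4358, 224 and 3020 fragments). APP was 16.3-fold lower in NT-LW than in IV-D (counting interval 14.2 to 18.7). ANXA1, an annexin, was at 59.4 and 15.9 against 6.37, and RNASE4, a secreted ribonuclease, at 22 and 5.94 against 154. With 1 boar per breed and 1 library per clone, breed, donor animal, donor culture and library cannot be told apart.

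The 2 shared groups of genes differed in their levels before the 4-cell stage but overlapped widely. An FPKM of at least 1 in both oocyte libraries was found for 287 of the 538 genes lower in both (53.3%) and 446 of the 545 higher in both (81.8%), against 79.2% of all genes compared. Of the 538 genes lower in both, 209 (38.8%) were under an FPKM of 1 in both oocyte libraries, against 13.5% of all genes compared and 63 of the 545 higher in both (11.6%). When the 3 libraries of 2-cell embryos were required to be under 1 as well, 177 (32.9%) of the lower and 34 (6.24%) of the higher genes passed, against 9.92% of all. Put the other way, 23.4% of the 757 genes silent by this measure in oocytes and 2-cell embryos were lower in both clones, and 4.49% higher. Among the 2857 genes with an FPKM of at least 10 in both oocyte libraries, 4.13% were lower and 8.12% higher. The classes come from libraries outside the comparison.

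**Figure D4:**
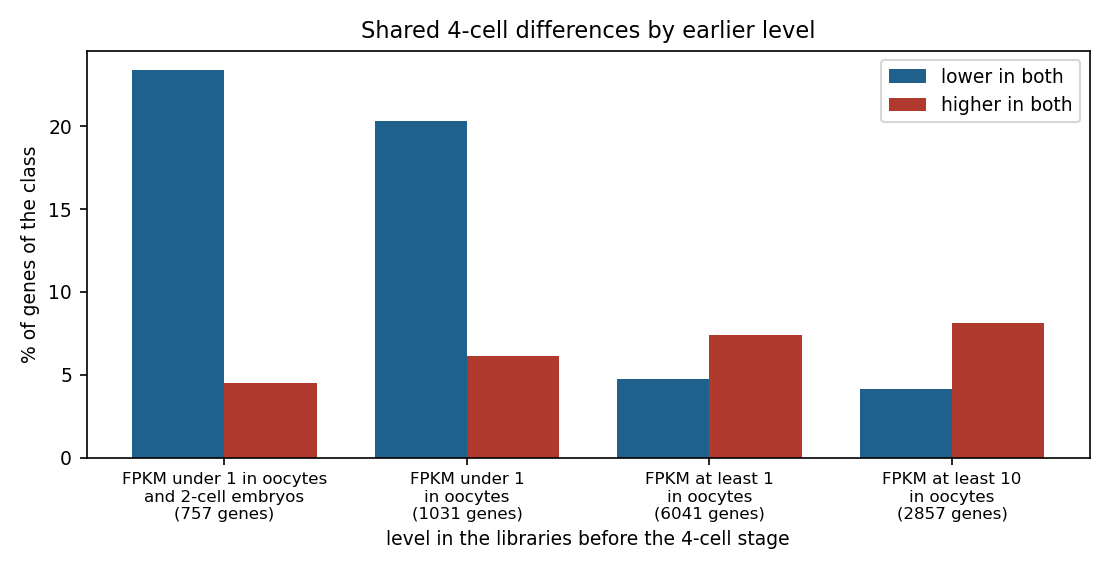
Share of genes lower (blue) and higher (red) in both clones within classes of their level in the libraries before the 4-cell stage; classes 1 and 2, and 3 and 4, overlap. The share of lower genes is 23.4% in the class silent in oocytes and 2-cell embryos and 4.13% in the class with an FPKM of at least 10 in oocytes.

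By the rule that chose them, the 177 genes were high in IV-D at the 4-cell stage, and the 61 that were under 1 in both clones passed the minimum level only through IV-D. RIMKLB, a ligase that forms N-acetylaspartylglutamate, was at most 0.199 in all oocyte, 1-cell and 2-cell libraries, then at 49.8 in IV-D, 5.10 in NT-D and 12.3 in NT-LW 4-cell embryos, and at 401, 87.1 and 67.3 in 8-cell embryos. RBM7, of the nuclear exosome targeting complex, was under 1 in the same earlier libraries and then at 381, 131 and 141. RIMKLB and RBM7 were named after their values were seen. At the 8-cell stage the medians of the 177 genes were 5.19 in IV-D, 2.47 in NT-D and 2.10 in NT-LW. An FPKM of at least 1 was reached by 106 of them in both clone libraries, by 120 in IV-D and by 100 in all 3 libraries. Another 38 were under 1 in all 3.

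Followed over the stages, the median of the 538 lower genes was 1.27 in IV-D, 1.70 in NT-D and 2.63 in NT-LW 2-cell embryos. It was 22.7, 4.94 and 5.94 in 4-cell embryos, 15.9, 9.26 and 7.92 in 8-cell embryos and 11.3, 10.6 and 11.6 in morulae. The groups were thus apart at the 4-cell stage, by construction, and their medians lay within a narrow range in morulae. Over all genes compared, the morula medians were 8.15 in IV-D, 10.9 in NT-D and 9.95 in NT-LW. Of the genes lower in both that could be compared at the 8-cell stage, 26.5% were lower in NT-D and 34.7% in NT-LW, against 14.9% and 15.1% of all genes. The higher side held 8.12% and 7.52% of them, against 11.2% and 16.9%. In morulae 9.35% of the genes lower in both were still lower in NT-D and 6.68% in NT-LW, against 3.32% and 3.18% of all. On the higher side in morulae the shares were 8.26% and 13.8%, against 19.1% and 11.8%.

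The 545 higher genes had a median of 7.36 in IV-D, 12.2 in NT-D and 16.3 in NT-LW 2-cell embryos and, by the rule that chose them, of 4.02, 15.0 and 14.9 in 4-cell embryos. At the 8-cell stage 28.2% were higher in NT-D and 37.8% in NT-LW, against 11.2% and 16.9% of all genes. At the 2-cell stage 21.2% were higher in NT-D and 41.5% in NT-LW, against 6.55% and 34.2% of all. The NT-LW 2-cell library stood above the IV-D one as a whole, with a median difference of 0.65 over all genes, so its 41.5% is close to its background. Of the same genes 23.9% were higher in recipient than in in vivo oocytes and 0.622% lower, against 13% and 1.52% of all genes. The share higher in recipient oocytes was similar, 23.5%, for genes higher in NT-LW only, and 14.5% for genes higher in NT-D only. Recipient oocytes came from hybrid and in vivo oocytes from Duroc sows. The part of the oocytes in the 4-cell differences was not tested. The oocyte comparison was chosen after the 4-cell values were seen.

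**Figure D5:**
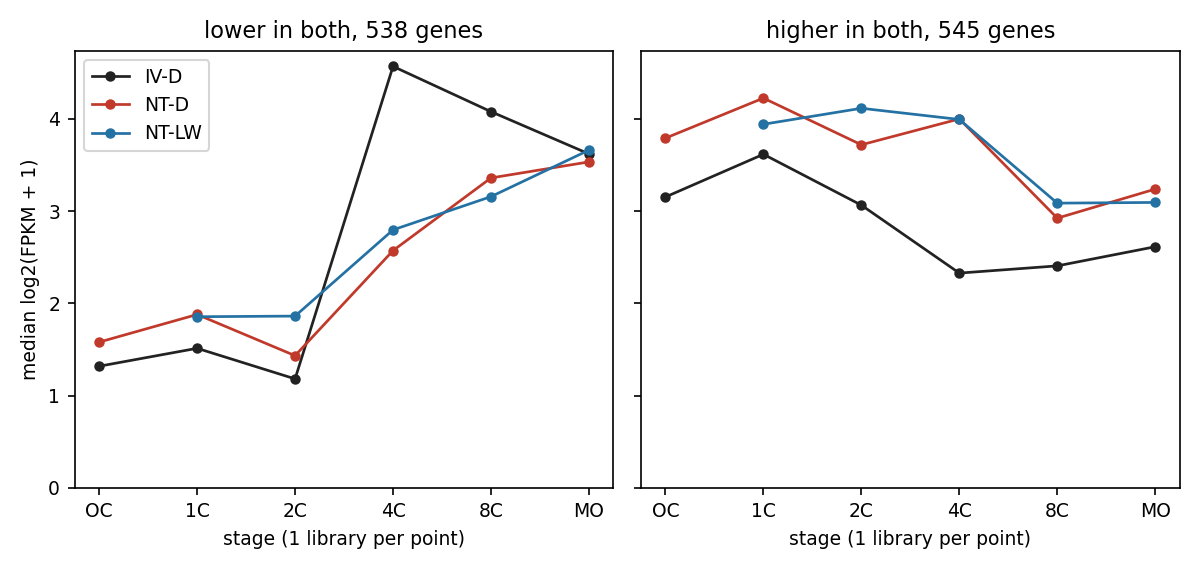
Median log2(FPKM + 1) of the 538 genes lower in both clones (left) and the 545 higher in both (right) from oocytes (OC) to morulae (MO), 1 library per point; the in vitro matured recipient oocytes are drawn as the oocyte stage of NT-D. The genes were chosen at 4C, where the gap between IV-D and the clones is widest.

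By position, the share of genes lower in both was 5.99% on the autosomes and 9.01% on the X chromosome (20 of 222), and the share higher in both 6.83% and 5.86%. Over the 18 autosomes the lower share ran from 2.92% on chromosome 9 to 12.7% on chromosome 17 (22 of 173 genes). Of 218 X-linked genes compared in each clone, 17 were higher (7.80%) and 33 lower (15.1%) in NT-D and 24 higher (11%) and 26 lower (11.9%) in NT-LW, near the 9.74%, 13.2%, 10.8% and 9.43% of all genes, with medians of -0.06 and -0.02 against -0.02 and 0.03 for all genes. MCTS1, an X-linked translation factor, was at 30.4, 2.82 and 1.71. Genes of both shared groups were shorter than the genes compared as a whole, but so were the groups called in 1 clone only, with median exonic lengths from 2445.5 to 2654 bases. Median exonic length was 2456.5 bases for genes lower in both, 2306 for genes higher in both and 3106 for all genes compared, and the median number of exons 8, 8 and 11. The promoters of the 105 positioned genes that were lower in both and silent before the 4-cell stage had a CpG ratio over 0.6 in 47.6%, against 63.1% of all positioned genes silent before that stage and 69.9% of all genes compared. That share was 68.6% for all genes lower in both and 58.5% for genes higher in both.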

How the data were processed

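RNA of pooled porcine embryos had been amplified with SMART-Seq v4 and sequenced as paired-end reads. Per the labels and the study's methods, the authors aligned reads to Sscrofa11.1 with HISAT2 2.0.4, counted them per Ensembl gene with HTSeq 0.9.1 and deposited FPKM values for 8603 genes. How those genes were chosen is not given in the sources used here. Whether the counting used strand is not stated either, so antisense or overlapping genes are not told apart. The spacing of low FPKM values gave back whole fragment numbers for 100% of genes (within 0.05 fragments), and from these depth, counting intervals (exact binomial, 95%) and lower bounds at 3 fragments were taken. The recovery and the fold rule were tested on simulated data, in which 100% of 200 genes lowered 8-fold were called. Those genes were drawn from genes with over 200 fragments, and the simulation held counting error only. It therefore does not cover low genes, changes near the limit or variation between libraries.

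Symbols (7371 genes) came from a gene name table, since the deposited file holds Ensembl IDs only, and positions from RefSeq for the 6851 symbols with 1 position. Promoters were the 250 bases before the RefSeq start. FPKM was compared as log2(FPKM + 1) in Python 3.11.15 with numpy 2.4.6, pandas 2.3.3 and scipy 1.17.1, without a test. Named genes were the 10 with the largest smaller difference of the 2 clones for each shared direction (FPKM of at least 10), 4 per direction for genes in 1 clone only (within 0.5 of IV-D in the other) and between clones, those of opposite direction, up to 3 per gene list, and genes the study names at this stage. COL1A1, COX5A, GATA3, GDF9, HNRNPD, MOS, POLR2B, POLR2H, SPARC and VIM fall outside this rule and were named from their lists after their values were seen. The genes to compare, the lists and the rules were chosen with earlier results of these data known. The comparison of recipient with in vivo oocytes was added after the 4-cell values were seen. Samples were grouped by their titles. Alternatives were 9: the pseudocount, 2 minimum levels, 3 scalings, a larger fold, an exact binomial test on fragments and autosomal genes alone.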

Additional observations from a re-analysis of the deposited data

Results flagged for a closer look

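Genes called lower in NT-D and higher in NT-LW, each against the same IV-D library, were BCL2L15, ZBTB8A, MST1 and CCL16. The difference between the clones was not tested, since each clone has 1 library. BCL2L15 was at an FPKM of 15.0 in IV-D, 4.76 in NT-D and 96.0 in NT-LW, with NT-LW over NT-D by 4.07 on the log2(FPKM + 1) scale. ZBTB8A, a zinc finger protein, was at 11.6, 4.06 and 35.8 and differed between the clones by 2.86. CCL16, a chemokine, was at 1.28, 0.123 and 10.2 and differed by 3.31. With 3 fragments in NT-D, its level there was 10.4-fold lower than in IV-D, with a counting interval of 3.27 to 53.1. MST1, a growth factor like hepatocyte growth factor, was at 1.53, 0.205 and 4.81 and differed by 2.27, with 8 fragments in NT-D. All 4 were under 1 in the oocyte and 2-cell libraries. In 8-cell embryos BCL2L15 was at 2.32, 8.73 and 21.5, CCL16 at 0.571, 0.0640 and 6.0 and ZBTB8A at 34.6, 8.43 and 12.3. NT-LW was again above NT-D for these 3 genes, and MST1 was at 0.618, 0.579 and 0.494.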

How the results depend on the processing

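No paired analysis was possible because each condition has 1 library, all of replicate number 1, and for the same reason no replicate could be left out. With a log2 difference over 2, by construction, 89 genes were higher and 232 lower in NT-D, 117 higher and 131 lower in NT-LW, 62 higher and 98 lower in both, 161 called in NT-D only, 88 in NT-LW only and 39 between the clones; of the lower genes 15.0% (NT-D) and 27.8% (NT-LW) were also lower at the 8-cell stage and of the higher genes 24.0% and 27.1% were higher, against 2.92%, 3.64%, 2.08% and 3.37% of all genes. With a pseudocount of 0.1, the genes that differ between the 2 clone libraries numbered 599 and the 8-cell share of lower genes in NT-D was 31.0%, against 18.2% of all genes. Autosomal genes alone, fewer genes, gave 467 lower in NT-LW, 350 lower in both and 214 between the clones. Counts of genes lower in NT-LW only went from 173 to 281 with equal sums. Genes lower in NT-LW than in NT-D 4-cell embryos, 72, numbered 143 with equal sums, 172 with a pseudocount of 0.1 and 36 on autosomes, and genes higher in NT-LW than in NT-D 4-cell embryos, 253, numbered 427 with that pseudocount. Genes called in opposite directions, 4, numbered 11 with that pseudocount and 2 with a minimum FPKM of 5. Median-ratio scaling moved NT-LW by -0.06 on the log2 scale and equal sums by -0.12. Equal sums also raised all values, since each library was rescaled to 1000000 and the FPKM of IV-D summed to 479996. The pseudocount and the minimum level, both 1, then weighed less. In NT-D counts rose in both directions, from 731 to 843 higher and from 991 to 1275 lower. Counts with equal sums thus do not show the shift alone. More genes were lower than higher in NT-LW under both scalings, 787 against 737 and 1034 against 888. All 538 genes lower in both were called again under median-ratio scaling, which moved NT-LW downwards, and 536 under the exact binomial test. Of the 545 genes higher in both, 521 were called again under median-ratio scaling, 519 with equal sums and 545 under the exact binomial test. Of 58 list medians 4 changed sign under a scaling and 7 under any alternative. Depth limits low genes, since 3 fragments on a gene of 1 kilobase are an FPKM of 0.157 to 0.200.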
